A study of Sus scrofa with 23 samples.

Results

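The glycolysis genes described here are 10 genes that encode enzymes from glucose uptake into the pathway to lactate: HK1, GPI, PFKM, PFKP, ALDOC, PGK1, ENO2, PKM, LDHA and LDHB. They were chosen by symbol, as the rows of the deposited gene table whose pig Ensembl name is one of these 10, and all 10 were found among 25880 genes. All 10 also passed the filter on low counts that left 15049 genes for testing. RNA was measured by poly-A selected RNA sequencing in the prefrontal cortex of 23 adolescent female pigs of 20 kg, with 1 library for each animal. The groups were 6 animals 1 week after psilocybin, 6 animals 1 week after saline, 6 animals 1 day after psilocybin and 5 animals 1 day after saline. The submitters state 6 animals for each of these. Every sample column of the deposited table was used, and 5 of them are saline at 1 day. Each animal had received 1 intravenous injection of 0.08 mg/kg psilocybin or of saline while awake, and was killed with pentobarbital. Psilocybin is the precursor of psilocin, a compound that activates serotonin receptors of cortical neurons. Every group was spread over 2 batches named in the labels, with 3 animals in each batch, or 2 in batch 1 and 3 in batch 2 for the saline 1 day group. What a batch stands for is not given in the sources used here.

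Glycolysis turns glucose into pyruvate in the cytosol and yields ATP without oxygen. The brain depends on glucose for nearly all of its energy, and its cells divide the work, since astrocytes pass part of their glucose carbon to neurons as lactate. Most steps are run by several isozymes from separate genes, and some of these mark cell types: aldolase C is typical of astrocytes and enolase 2 of neurons.

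Assigned counts per library ranged from 9504421 to 18654626. Markers of neurons (SNAP25 averaged 2721 CPM), of excitatory and inhibitory neurons, of astrocytes and of oligodendrocytes were present in every library, as the labelled tissue should show. The summed level of the choroid plexus markers found was 1.46 to 12.8 CPM. CPM is a count scaled to a common library total, here after TMM scaling. With batch means taken out, the leading principal component (21.3% of the variance) gave its highest scores to 3 libraries. They are called the libraries that stand apart here. Psilocybin 1 week animal 6 scored 28.1 on it, saline 1 week animal 1 scored 38.0 and saline 1 day animal 5 scored 39.8. The next scores were 20.4 for psilocybin 1 day animal 1 and 9.3 for saline 1 day animal 2. The scores alone therefore set no sharp limit at 3. Saline 1 day animal 5 also had the highest summed level of oligodendrocyte markers. Results that rest on these 3 libraries are given with and without them.

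The pathway ran at high RNA levels in this cortex, with an uneven use of isozymes. Levels of different genes were compared in TPM, in which each count is first divided by the gene's exon length. By listed exon length, GPI had the highest mean among the 10 genes, at 648 ± 103 TPM (SD, n = 23). ALDOC at 530.0 ± 59.8, ENO2 at 436 ± 66.5 and PKM at 424.96 ± 57.4 TPM followed. The listed length understates ALDOC, which was the highest of the 10 once shared exon bases were left out, as given below. PGK1 averaged 264 ± 27.6 TPM and HK1 averaged 244 ± 41.6 TPM. PFKM (128 ± 28.5 TPM), PFKP (125 ± 23.1 TPM) and LDHA (124 ± 19.1 TPM) formed the next level down. LDHB averaged 7.77 ± 1.39 TPM. The ranges over the 23 libraries overlapped between all neighbours in this order except LDHA and LDHB.

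**Figure D1:**
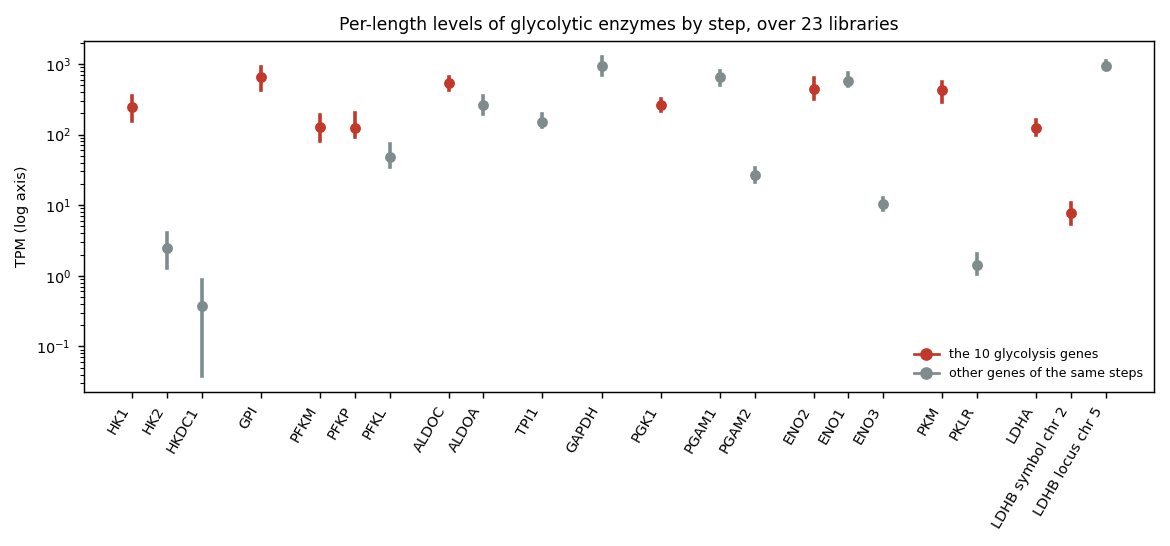
Levels of glycolytic enzymes in TPM on a log axis, ordered by the step they catalyse, with points for the mean and bars for the lowest to highest of 23 libraries. The 10 glycolysis genes are in red and other genes of the same steps in grey. The means of HK1, GPI, ALDOC, PGK1, ENO2 and PKM lie above 200 TPM, whereas the LDHB symbol lies near 8 TPM and the LDHB locus on chromosome 5 near 942 TPM.

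The low LDHB value belongs to a short gene model and not to the locus with the bulk of the reads. The symbol LDHB is given in the gene names to ENSSSCG00000032557, a model on the minus strand of chromosome 2 (bases 12988754 to 12990030, build susScr11) with 2 merged exons in a span of 1277 bases. It had 27 to 78.5 counts per library. The RefSeq gene table holds 2 entries named LDHB. One coincides with this model, and the other overlaps 98.7% of an Ensembl gene that has no symbol, ENSSSCG00000000576 on the plus strand of chromosome 5 (bases 51810967 to 51831490), with 8 merged exons. That gene had 5705 to 11931 counts per library, on average 173 times those of the chromosome 2 model, and 942 ± 68.5 TPM. It is called the chromosome 5 LDHB locus here. It was added after its values were seen and is not counted among the 10. Per length, the chromosome 5 locus exceeded the chromosome 2 model by 6.94 ± 0.22 on the log2 scale (SD, n = 23, range 6.54 to 7.33). The counting error expected for the few counts of the chromosome 2 model alone gives an SD of 0.219 on that scale. Reads that fit both copies cannot be assigned with certainty, so the LDHB counts on chromosome 2 are uncertain.

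Overlaps in the annotation also bear on the levels, because 6 of the 10 genes share exon bases with another gene model and featureCounts split reads between overlapping genes without regard to strand. For ALDOC the shared part is 58.3% of its listed exon bases (3740 bases, with SPAG5 on the same strand). SPAG5 averaged 14.5 counts, against 18192 for ALDOC, so few of the ALDOC reads lay in the shared bases. For PKM it is 26.7% with ENSSSCG00000001929, for PFKP 15.4% with PITRM1 on the other strand, for PFKM 14.0% with ENSSSCG00000021024 on the other strand, for ENO2 12.04% with LRRC23, and for GPI 4.23% with GARRE1. PITRM1 averaged 1697 counts, against 2736 for PFKP, so with strand disregarded the PFKP counts can include PITRM1 reads. How far they do was not tested. When shared bases were left out of the exon length, ALDOC averaged 1270.3 TPM and became the highest of the 10, and PKM averaged 591 TPM. The order from PGK1 downward was the same with either length.

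HK1, PFKM, PFKP, ENO2 and PKM were not the only genes of their steps, and the other isozymes set a frame for them. For the entry step, HK1 far exceeded HK2 at 2.47 TPM and HKDC1 at 0.368 TPM. For phosphofructokinase, the main control step, PFKM and PFKP stood at similar levels and PFKL averaged 48.8 TPM. ALDOA, the other aldolase of brain, averaged 259.1 TPM. ENO1, the general enolase, averaged 576 TPM, above ENO2 with the listed length, with overlapping ranges. The muscle enolase ENO3 averaged 10.5 TPM. The liver and red cell pyruvate kinase gene PKLR averaged 1.43 TPM. TPI1 (152 TPM), GAPDH (920 TPM) and PGAM1 (648 TPM) carry the steps for which none of the 10 codes.

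None of the 10 glycolysis genes passed the test for a difference with psilocybin at either time. At 1 week, 0 of the 10 genes passed at an adjusted p under 0.05, and 0% of all 15049 genes did. At 1 day, again 0 of 10 passed and 0% of all genes. Every p here comes from edgeR's quasi-likelihood test with Benjamini-Hochberg adjustment over the 15049 genes. At 1 week 1.99% of all genes had an unadjusted p under 0.05, and at 1 day 2.83%, with 0 of the 10 among them at either time. DESeq2 and limma-voom also called 0 genes of all at either time. No member separated psilocybin from saline, where 0.0465% of all genes did at 1 week and 0.126% at 1 day.

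**Figure D2:**
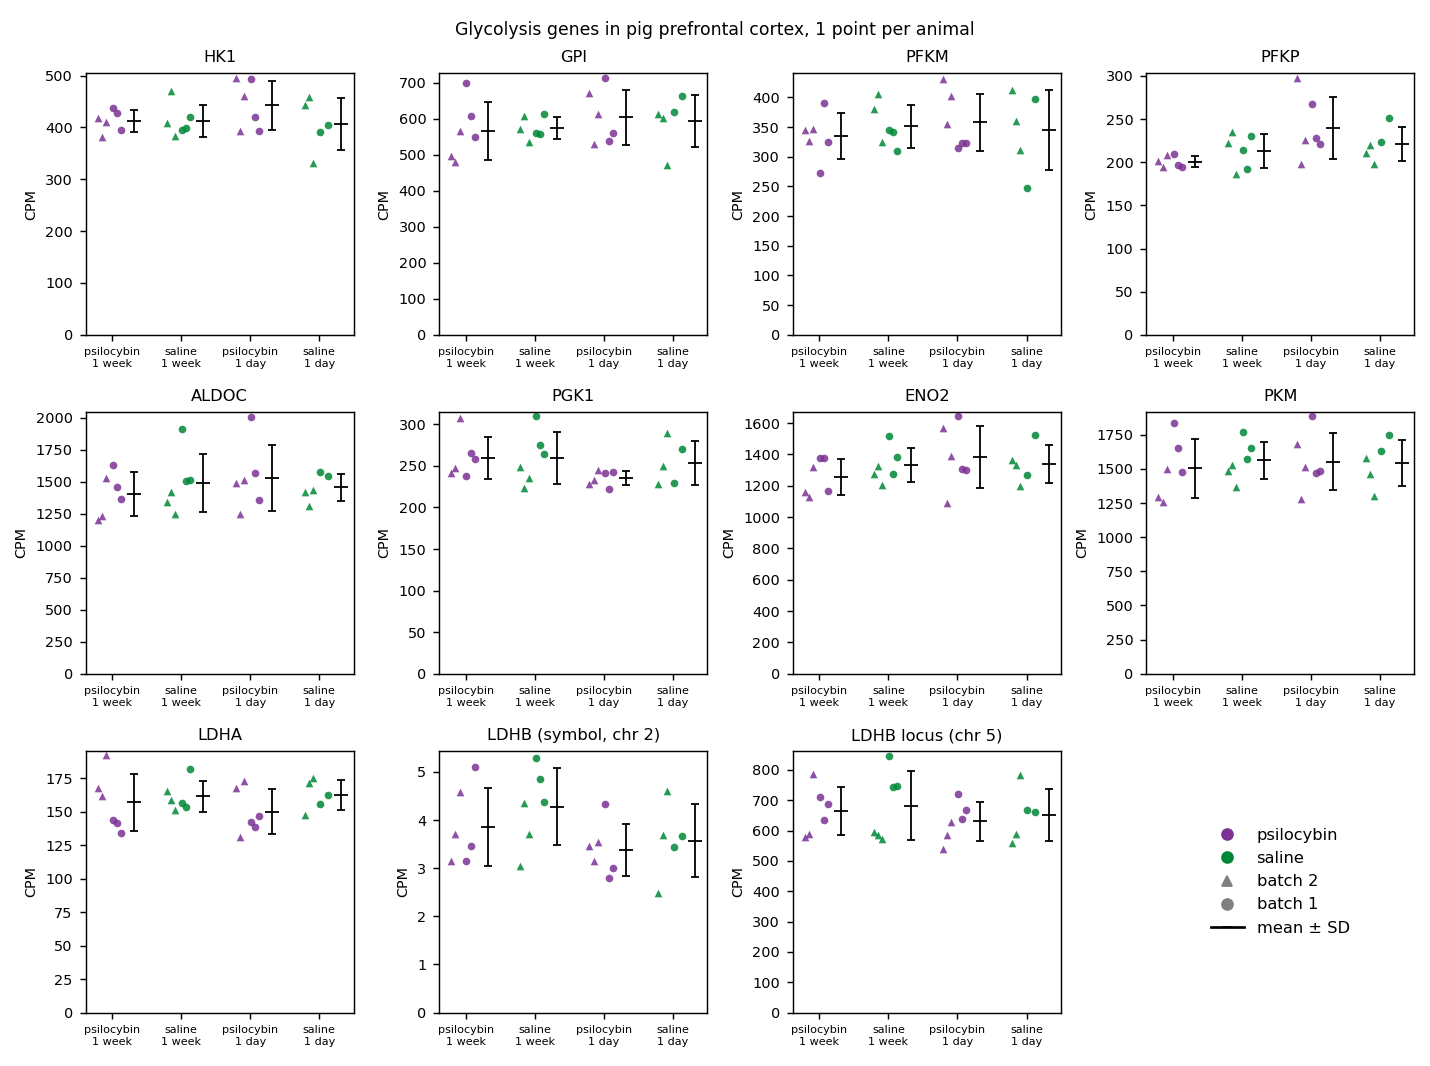
CPM of each glycolysis gene and of the chromosome 5 LDHB locus, 1 point for each animal, with triangles for batch 2 and circles for batch 1, and bars for the mean ± SD of the group. The axes start at 0. The groups overlap in every panel, and PFKP spans only 194 to 209 CPM in the 6 animals 1 week after psilocybin.

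The estimated differences between treatments were small, but their intervals were wide beside them and leave changes of either sign possible. At 1 week, 1 of the 10 genes had a log2 fold change above 0 and 9 had one below it, where 48.8% of all genes tested lay above 0 and 51.2% below. The members' median was -0.06 and that of all genes 0.00. Estimates ran from -0.15 for LDHB to 0.00 for PGK1. Leaving out LDHB with its few counts, the 95% intervals of the other 9 genes lay between -0.28 and 0.17, or from 17.7% lower to 12.5% higher. At 1 day, 6 genes had a log2 fold change above 0 and 4 below, where 51.4% of all genes lay above 0 and 48.6% below. The median was 0.03, and estimates ran from -0.11 for PGK1 to 0.13 for HK1. Without LDHB the intervals lay between -0.29 and 0.31, or from 18.1% lower to 23.6% higher.

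**Figure D3:**
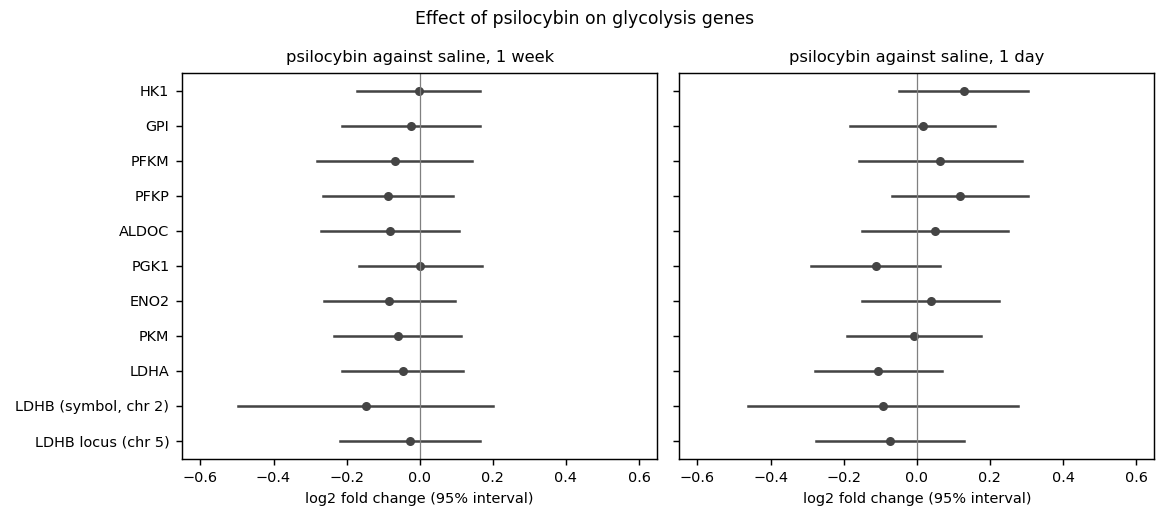
Log2 fold changes of psilocybin against saline with 95% intervals for the 10 glycolysis genes and the chromosome 5 LDHB locus, at 1 week (left) and at 1 day (right). Every interval includes 0, and that of the LDHB symbol is the widest in each panel.

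HK1 encodes the hexokinase that traps glucose as glucose 6-phosphate and is the main form in brain (ENSSSCG00000010253, chromosome 14, bases 72382912 to 72460924, plus strand). One week after psilocybin its lowest, median and highest values were 382, 414.5 and 438 CPM, against 384, 404 and 470 CPM 1 week after saline. At 1 day psilocybin animals had 394, 440.1 and 496 CPM, and the 5 saline animals had 391, 405, 443.8, 459 and 331 CPM. The groups overlapped at both times, and the lowest library of all was saline 1 day animal 5, 1 of the 3 that stand apart. The log2 fold change was -0.00 ± 0.08 at 1 week (SE) and 0.13 ± 0.09 at 1 day, and 0.06 at 1 day without the 3 libraries. At 1 day HK1 had the smallest p of the 10 genes (unadjusted p = 0.147, edgeR), and its estimate was 0.12 in batch 2 and 0.14 in batch 1.

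GPI encodes the isomerase that converts glucose 6-phosphate to fructose 6-phosphate (ENSSSCG00000002873, chromosome 6, bases 44032623 to 44069331, plus strand). It averaged 567 ± 80.3 CPM 1 week after psilocybin and 575 ± 29.8 CPM 1 week after saline (SD, n = 6 each). At 1 day it averaged 605 ± 75.8 CPM after psilocybin (n = 6) and 595 ± 72.3 CPM after saline (n = 5). The log2 fold changes were -0.02 ± 0.09 and 0.02 ± 0.10 (SE), and at both times the batches differed in sign. At 1 week GPI had -0.16 in batch 2 and 0.10 in batch 1, and at 1 day 0.10 in batch 2 and -0.08 in batch 1.

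PFKM and PFKP encode the muscle-type and platelet-type subunits of phosphofructokinase, which commits sugar to glycolysis, and both types are made in brain. PFKM (ENSSSCG00000021129, chromosome 5, bases 78475468 to 78526997, plus strand) averaged 334 ± 38.6 CPM 1 week after psilocybin and 351 ± 35.8 CPM 1 week after saline (SD, n = 6 each). At 1 day it averaged 358 ± 48.3 CPM after psilocybin (n = 6) and 346 ± 67.4 CPM after saline (n = 5). The saline 1 day group had the widest spread of PFKM, with 248 CPM in animal 1 and 412 CPM in animal 3. PFKM had log2 fold changes of -0.07 ± 0.10 at 1 week and 0.06 ± 0.11 at 1 day (SE).

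PFKP (ENSSSCG00000011158, chromosome 10, bases 67021453 to 67082534, minus strand) was the member that varied most in its spread between groups. One week after psilocybin the lowest, median and highest values were 194, 199 and 209 CPM, against 186, 218 and 235 CPM 1 week after saline. At 1 day the psilocybin values were 198, 227 and 298 CPM, against 224, 251.2, 211, 220 and 198 CPM in the 5 saline animals. The highest value, 298 CPM, was psilocybin 1 day animal 4, the library with the most counts. Its coefficient of variation was 3.41% 1 week after psilocybin, against 9.33% 1 week after saline, and 15.1% 1 day after psilocybin, against 8.87% 1 day after saline. The psilocybin effect was -0.09 ± 0.09 at 1 week and 0.12 ± 0.09 at 1 day (log2, SE). The change of that effect between the times was -0.21 ± 0.13 (1 week minus 1 day), the smallest p of the 10 genes for that difference, and it did not pass (unadjusted p = 0.113, edgeR).

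ALDOC encodes aldolase C, the brain aldolase that splits fructose 1,6-bisphosphate (ENSSSCG00000017759, chromosome 12, bases 44823014 to 44848483, minus strand). One week after psilocybin its lowest, median and highest values were 1204, 1412 and 1633 CPM, against 1247, 1464 and 1909 CPM 1 week after saline. One day after psilocybin they were 1250.2, 1499.7 and 2004 CPM, against 1573, 1541, 1417, 1311 and 1432 CPM in the 5 saline animals. The highest animal of each of the 2 groups with the widest range, at 2004 and 1909 CPM, was in batch 1. The log2 fold changes were -0.08 ± 0.09 at 1 week and 0.05 ± 0.10 at 1 day (SE).

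PGK1 encodes phosphoglycerate kinase, the first step that yields ATP (ENSSSCG00000012440, chromosome X, bases 62187404 to 62210705, plus strand). One week after psilocybin its lowest, median and highest values were 237, 252.6 and 308 CPM, against 223, 257 and 310.4 CPM 1 week after saline. The psilocybin 1 day values were 223, 237 and 244.8 CPM, against 230.0, 271, 229, 249.8 and 289 CPM in the 5 saline animals. The highest PGK1 value in each of the 3 other groups came from the library that stands apart in it. The psilocybin 1 day group holds none of those 3 libraries, although its animal 1 had the next score on the same component. Its log2 fold change was 0.00 ± 0.08 at 1 week and -0.11 ± 0.09 at 1 day (SE), and without the 3 libraries that stand apart -0.00 at 1 week and -0.05 at 1 day. Within batches at 1 week it was 0.17 in batch 2 and -0.16 in batch 1, so that the pooled value near 0 averages estimates of opposite sign.

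ENO2 encodes the neuronal enolase (ENSSSCG00000028373, chromosome 5, bases 63796230 to 63836640, minus strand), and PKM encodes the pyruvate kinase that makes pyruvate and ATP (ENSSSCG00000001930, chromosome 7, bases 60971835 to 61033954, plus strand). ENO2 averaged 1256 ± 116 CPM 1 week after psilocybin and 1331 ± 110.0 CPM 1 week after saline (SD, n = 6 each). At 1 day ENO2 averaged 1384 ± 199.8 CPM after psilocybin (n = 6) and 1339 ± 122 CPM after saline (n = 5). In the fit its differences were -0.08 ± 0.09 and 0.04 ± 0.09 (log2, SE), less than 1 SD of the animals.

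PKM had lowest, median and highest values of 1259, 1489 and 1837 CPM 1 week after psilocybin, against 1370.5, 1552 and 1769 CPM 1 week after saline. One day after psilocybin they were 1280.0, 1500.1 and 1886 CPM, against 1632, 1747, 1578, 1461 and 1305 CPM in the 5 saline animals. The treatments overlapped almost completely. The log2 fold change was -0.06 ± 0.08 at 1 week and -0.01 ± 0.09 at 1 day (SE).

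LDHA and LDHB encode the subunits of lactate dehydrogenase, which interconverts pyruvate and lactate, and the B subunit is typical of oxidative tissue. LDHA (ENSSSCG00000013366, chromosome 2, bases 40813963 to 40826715, minus strand) had lowest, median and highest values of 134, 153 and 192 CPM 1 week after psilocybin, against 151, 158 and 182 CPM 1 week after saline. In the psilocybin 1 day group they were 131, 145 and 173 CPM, against 156, 163, 148, 172 and 175 CPM in the 5 saline animals. The log2 fold change was -0.05 ± 0.08 at 1 week and -0.11 ± 0.08 at 1 day (SE). At 1 week LDHA had 0.13 in batch 2 and -0.23 in batch 1, with 3 animals of each treatment in each batch.

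The LDHB symbol on chromosome 2 averaged 3.85 ± 0.809 CPM 1 week after psilocybin and 4.28 ± 0.802 CPM 1 week after saline (SD, n = 6 each). At 1 day it averaged 3.38 ± 0.545 CPM after psilocybin (n = 6) and 3.57 ± 0.756 CPM after saline (n = 5). Its log2 fold changes of -0.15 ± 0.17 and -0.09 ± 0.18 (SE) carry the widest intervals of the 10 genes. The chromosome 5 LDHB locus had lowest, median and highest values of 578, 659.9 and 788 CPM 1 week after psilocybin, against 572, 669 and 847 CPM 1 week after saline. One day after psilocybin they were 540, 633 and 720 CPM, against 669, 661, 558, 589 and 782 CPM in the 5 saline animals. The highest library in each of the other 3 groups was again the one that stands apart. Its log2 fold changes were -0.03 ± 0.09 at 1 week, with 0.15 in batch 2 and -0.20 in batch 1, and -0.07 ± 0.10 at 1 day. Without the 3 libraries that stand apart they were -0.06 at 1 week and 0.03 at 1 day.

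The isozyme ratios, which do not depend on how the libraries were scaled, gave the same picture for treatment. LDHA over the chromosome 5 LDHB locus was -2.96 ± 0.23 1 week after psilocybin and -2.94 ± 0.24 1 week after saline (log2 ratio per length, SD, n = 6 each). At 1 day it was -2.95 ± 0.25 after psilocybin (n = 6) and -2.87 ± 0.15 after saline (n = 5). PFKM over PFKP was 0.09 ± 0.19 1 week after psilocybin and 0.08 ± 0.15 1 week after saline, and -0.06 ± 0.23 1 day after psilocybin and -0.01 ± 0.30 1 day after saline. The difference between treatments was less than the spread between animals for each ratio at each time.

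Time after the injection was compared within each treatment. After psilocybin, 3 of the 10 genes were above and 7 below 0 at 1 week against 1 day (median -0.10), where 54.3% of all genes lay above and 45.7% below 0 (median 0.01). At an adjusted p under 0.05, 0 of the 10 passed, and 0% of all genes did. PFKP was the 1 gene with an unadjusted p under 0.05, which 3.18% of all genes had. It averaged 201 ± 6.85 CPM at 1 week and 239.8 ± 36.1 CPM at 1 day after psilocybin (SD, n = 6 each). Its log2 fold change of -0.26 ± 0.09 (SE) was -0.28 in batch 2 and -0.26 in batch 1, with an unadjusted p of 0.00665 and an adjusted p of 0.999 (edgeR). The PFKP values at the 2 times overlapped. None of the 10 genes separated these groups, and 0.0664% of all genes did.

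After saline, 6 genes were above and 4 below 0 at 1 week against 1 day (median 0.01), where 51.7% of all genes lay above and 48.3% below 0. At an adjusted p under 0.05, 0 of 10 passed and 0% of all genes, and at an unadjusted p under 0.05, 0 of 10 and 2.01% of all genes. PFKP had -0.05 ± 0.09 there. No member separated the saline times, where 0.14% of all genes did. These 2 time comparisons use different animals throughout, and the comparisons of psilocybin with saline share their groups with them. For the change of the psilocybin effect from 1 day to 1 week, 2 genes were above and 8 below 0 (median -0.09), where 50.3% of all genes lay above and 49.7% below. The average effect over both times gave 2 above and 8 below 0 (median -0.02), where 49.5% of all genes lay above and 50.5% below. In each of these comparisons 0 of 10 passed, and 0% of all genes. At an unadjusted p under 0.05 there were 0 of the 10 in either, against 2.02% of all genes for the change and 3.04% for the average.

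Batch, which is crossed with the groups and was a term of the model, was the 1 factor with which glycolysis genes changed. ALDOC and PKM, 2 of the 10, were lower in batch 2 and 0 were higher, where 32.9% of all genes differed between batches, 16.8% lower and 16.1% higher in batch 2. The members' count is therefore near the background. ALDOC had lowest, median and highest values of 1204, 1379 and 1532 CPM in the 12 libraries of batch 2, against 1357, 1541 and 2004 CPM in the 11 libraries of batch 1. Its log2 fold change was -0.21 ± 0.07 (SE, adjusted p = 0.0167, edgeR). PKM had 1259, 1473 and 1682 CPM in batch 2, against 1473, 1653 and 1886 CPM in batch 1 (log2 fold change -0.20 ± 0.06, adjusted p = 0.0141, edgeR). The batches overlapped for both genes. They overlapped for all 10, where 0.545% of all genes separated the batches. Of the 10 genes, 3 had a log2 fold change above 0 and 7 below, where 46.5% of all genes lay above and 53.5% below. An unadjusted p under 0.05 was found for 3 of the 10, the third being PFKM, and for 43.6% of all genes.

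Neither call held under every choice. With 1 surrogate variable in the model, ALDOC had -0.02 and PKM -0.14, and neither passed, and without a filter on low counts neither passed either. With total counts in place of TMM scaling ALDOC passed and PKM did not. Leaving out psilocybin 1 day animal 1, psilocybin 1 week animal 1 or saline 1 week animal 1, all of batch 1, ended both calls. Without the 3 libraries that stand apart ALDOC passed and PKM did not (log2 fold change -0.17), and PFKM (0.22) passed as higher in batch 2.

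The other 8 genes did not pass between batches. PFKM had 0.17 ± 0.07 (adjusted p = 0.0874) and LDHA 0.12 ± 0.06 (adjusted p = 0.127, edgeR), and with total counts in place of TMM scaling LDHA passed as higher. The chromosome 5 LDHB locus, which is outside the 10, averaged 616 ± 81.6 CPM in batch 2 and 702 ± 61.6 CPM in batch 1 (log2 fold change -0.19 ± 0.07, adjusted p = 0.0345, edgeR). The log2 ratio of LDHA over that locus was -2.78 ± 0.15 in batch 2 (n = 12, range -3.04 to -2.56) and -3.10 ± 0.13 in batch 1 (n = 11, range -3.31 to -2.90). PFKM over PFKP was 0.12 ± 0.11 in batch 2 and -0.08 ± 0.25 in batch 1.

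Several measures moved with batch beside these genes. Mitochondrially encoded genes took a median of 11.1% of counts in batch 2 and 13.8% in batch 1. The summed level of microglia markers, all 7 of which were found, was 131 to 278 CPM in batch 2 (median 201) and 212 to 327 CPM in batch 1 (median 280). Red blood cell markers had a median sum of 44.6 CPM in batch 2 (11.7 to 75.9) and 103 CPM in batch 1 (21.9 to 498). The part of these measures in the batch differences of ALDOC and PKM was not tested. In bulk tissue, fewer cells of a type and less RNA in each cell cannot be told apart.

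**Figure D4:**
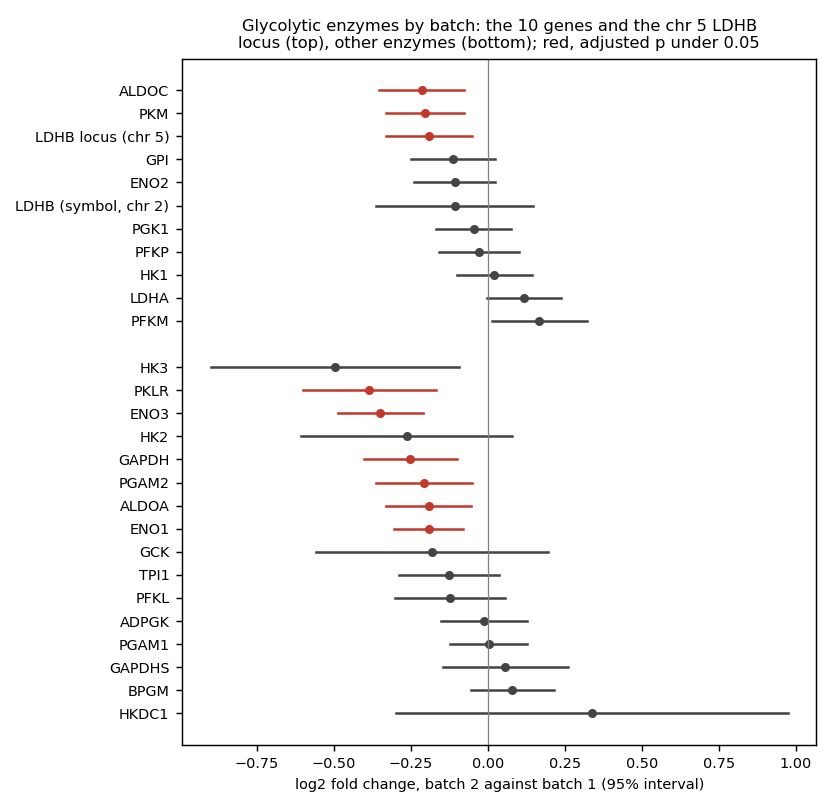
Log2 fold changes of batch 2 against batch 1 with 95% intervals, for the 10 glycolysis genes and the chromosome 5 LDHB locus (top) and for 16 other glycolytic enzymes (bottom), with an adjusted p under 0.05 in red. ALDOC, PKM and the chromosome 5 LDHB locus are red among the upper genes, and all red genes lie below 0.

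The remaining enzymes of the pathway were read from a list of 19, of which 16 were tested. With psilocybin 0 of 16 passed at either time, at medians of -0.00 at 1 week and 0.01 at 1 day. The smallest p values at 1 week belonged to ALDOA (-0.11 ± 0.09) and PKLR (0.16 ± 0.15), and at 1 day to the hexokinase genes HKDC1 (0.68 ± 0.46) and HK2 (0.30 ± 0.24, log2, SE). HKDC1 averaged only 0.74 CPM and HK2 5.73 CPM. GAPDH, the enzyme that reduces NAD during glycolysis, averaged 2373 ± 361 CPM 1 week after psilocybin and 2482.5 ± 301 CPM 1 week after saline (SD, n = 6 each). At 1 day it averaged 2599 ± 539 CPM after psilocybin (n = 6) and 2549.6 ± 298 CPM after saline (n = 5). Between batches, 6 of the 16 were lower in batch 2 and 0 higher, at a median of -0.19, where 16.8% of all genes were lower and 16.1% higher. They were ENO3 (-0.35 ± 0.07), PKLR (-0.39 ± 0.10), ENO1 (-0.19 ± 0.05), GAPDH (-0.25 ± 0.07), ALDOA (-0.19 ± 0.07) and PGAM2 (-0.21 ± 0.08, log2, SE). Under RLE factors, total counts or with mitochondrially encoded genes left out, 4 of the 16 were lower and 0 higher, and with 1 surrogate variable 0 passed. Without psilocybin 1 day animal 1 there were 2 lower, and without psilocybin 1 week animal 1 there were 3.

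Some of the listed regulators of glycolytic flux set the level of fructose 2,6-bisphosphate, which activates phosphofructokinase. Of the 7 genes of the list that were tested, 0 passed with psilocybin. PFKFB3, which makes that activator, had a log2 fold change of 0.26 ± 0.10 at 1 day (unadjusted p = 0.0154, adjusted p = 1.00, edgeR). TIGAR, which degrades it, had -0.24 ± 0.11 (unadjusted p = 0.0321, adjusted p = 1.00, edgeR). At 1 week the smallest p values were those of FBP1, a gluconeogenic phosphatase (-0.32 ± 0.20), and PFKFB2 (0.18 ± 0.15). Between batches, PFKFB2 was higher in batch 2 (0.36 ± 0.11), and TIGAR (-0.41 ± 0.07), GCKR (-0.48 ± 0.14) and PFKFB1 (-0.21 ± 0.07) were lower, against 16.1% of all genes higher and 16.8% lower. Of these 4, TIGAR still passed with 1 surrogate variable. PFKFB1 no longer passed without psilocybin 1 week animal 1 or 6, psilocybin 1 day animal 1 or 6, or saline 1 week animal 1 or 5.

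Transporters, of which 8 of 11 listed were tested, gave 0 calls with psilocybin. SLC2A8, a glucose carrier, had -0.15 ± 0.13 and the lactate carrier SLC16A3 -0.12 ± 0.14 at 1 week, and the lactate carrier SLC16A7 had -0.35 ± 0.25 and SLC2A6 0.13 ± 0.12 at 1 day. In batch 2, SLC2A13 (0.41 ± 0.09) and EMB (0.62 ± 0.20) were higher. SLC16A7 and EMB had low levels, with means of 2.00 and 1.13 CPM. BSG, the partner that carries lactate transporters to the membrane, was lower (-0.22 ± 0.06). The shares of all genes were 16.1% higher and 16.8% lower, and none of these 3 passed with 1 surrogate variable. BSG no longer passed without psilocybin 1 week animal 1 or psilocybin 1 day animal 1.

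Genes that take pyruvate into mitochondria, 15 of 15 tested, also gave 0 calls with psilocybin. The anaplerotic enzyme gene PC had 0.24 ± 0.10 (unadjusted p = 0.023) and PDPR, which regulates the dehydrogenase phosphatase, 0.18 ± 0.09 (unadjusted p = 0.049, edgeR) at 1 day. PDHB (-0.07 ± 0.07) and DLD (-0.05 ± 0.06), subunits of the pyruvate dehydrogenase complex, had the smallest p values at 1 week. Between batches 3 were higher in batch 2, namely PDP2 (0.28 ± 0.08), PDK4 (0.41 ± 0.13) and DLAT (0.12 ± 0.04), and PDK2 was lower (-0.19 ± 0.06), where 16.1% of all genes were higher and 16.8% lower. Under DESeq2 6 were higher and 1 lower, under total counts 6 higher and 0 lower, without a filter 4 higher and 0 lower, and with 1 surrogate variable 0 in either direction. Leaving out saline 1 day animal 2 or saline 1 day animal 5 gave 5 higher, and leaving out saline 1 week animal 1 gave 6. Without saline 1 day animal 5 there were 3 lower, and PDK2 no longer passed without psilocybin 1 day animal 1, psilocybin 1 week animal 1 or saline 1 week animal 1.

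The 13 glycogen genes, the 8 pentose phosphate genes and the 10 genes of the NADH shuttles gave 0 calls with psilocybin at either time. The smallest p values among them at 1 day were those of PHKG1 (0.31 ± 0.14, unadjusted p = 0.0396, edgeR), PYGM (0.20 ± 0.12), RPE (-0.16 ± 0.10), H6PD (0.11 ± 0.13), MDH1 (-0.18 ± 0.10) and SLC25A12 (-0.13 ± 0.09). At 1 week they were those of GBE1 (0.14 ± 0.13), PGM2 (-0.15 ± 0.14), H6PD (0.12 ± 0.12), TKT (-0.06 ± 0.09), SLC25A11 (-0.11 ± 0.10) and SLC25A12 (0.09 ± 0.09). In batch 2, 5 glycogen genes were higher and 0 lower, among them PGM2L1 (0.34 ± 0.08), where 16.1% of all genes were higher and 16.8% lower. There were 2 higher without saline 1 day animal 1 and 3 without psilocybin 1 day animal 6. Of the pentose phosphate genes, RPE was higher (0.23 ± 0.07) and TALDO1 (-0.27 ± 0.07) and PGLS (-0.29 ± 0.08) were lower. Of the shuttle genes, GPD2 was higher (0.24 ± 0.06) and GPD1 (-0.33 ± 0.11) and SLC25A11 (-0.18 ± 0.07) were lower. Neither of the 2 lower genes passed without psilocybin 1 day animal 1 or psilocybin 1 week animal 1, and SLC25A11 lost its call with most single libraries left out. In all 3 lists 0 genes passed with 1 surrogate variable.

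Several glycolytic genes are known targets of the hypoxia-inducible factors, so 15 genes of the hypoxia response were read beside them. With psilocybin 0 of 15 passed at either time. At 1 week ADM had 0.59 ± 0.34 and HIF1A 0.14 ± 0.08, and at 1 day ANKRD37 had -0.44 ± 0.29 and CA9 -0.28 ± 0.18 (log2, SE). ADM, ANKRD37 and CA9 had low levels, with means of 1.07, 1.97 and 3.84 CPM. Between batches, HIF1A (0.41 ± 0.06) and EPAS1 (0.60 ± 0.11), which encode the factors, and KDM3A (0.28 ± 0.07) and BNIP3L (0.21 ± 0.06) were higher in batch 2, and DDIT4 was lower (-0.22 ± 0.07), where 16.1% of all genes were higher and 16.8% lower. With 1 surrogate variable HIF1A was the 1 gene of the list that passed. DESeq2 and total counts each gave 7 higher and 1 lower, and leaving out saline 1 week animal 1 gave 7 higher and 2 lower. Without the 3 libraries that stand apart 5 were higher and 3 lower.

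Across animals, the glycolysis genes did not vary as 1 unit. Group and batch means were removed from log2 CPM, and Pearson's r was taken over the 23 libraries for the 45 pairs of members, as a description. All pairs share the same libraries and their scaling. Of the 45 pairs, 10 had an r above 0.7. The share over pairs of all genes is not given here, so this count has no background. Genes outside the 10 had r as high with single members, as given below. The highest were GPI with PKM (0.92), ENO2 with PKM (0.92) and HK1 with GPI (0.85). PFKP had 0.78 with ENO2 and 0.73 with PKM, and ALDOC had 0.74 with each of ENO2 and PKM. Without the 3 libraries that stand apart GPI with PKM was 0.98. ALDOC then had 0.80 with HK1, 0.80 with GPI, 0.76 with ENO2, 0.85 with PKM and 0.59 with PFKP. With all libraries it had 0.40 with HK1, 0.48 with GPI and 0.47 with PFKP.

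PGK1 and LDHA varied apart from that group. PGK1 had -0.34 with HK1 and -0.24 with GPI, and 0.82 with the chromosome 5 LDHB locus. Without the 3 libraries that stand apart, those values were -0.09, -0.07 and 0.36, so the high one rested largely on these libraries. The r of LDHA with the other 9 members lay between -0.00 (PFKM) and 0.51 (PGK1). PFKM had no r above 0.5 with any other member. The chromosome 2 LDHB model had 0.66 with the chromosome 5 locus and 0.41 without the 3 libraries.

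**Figure D5:**
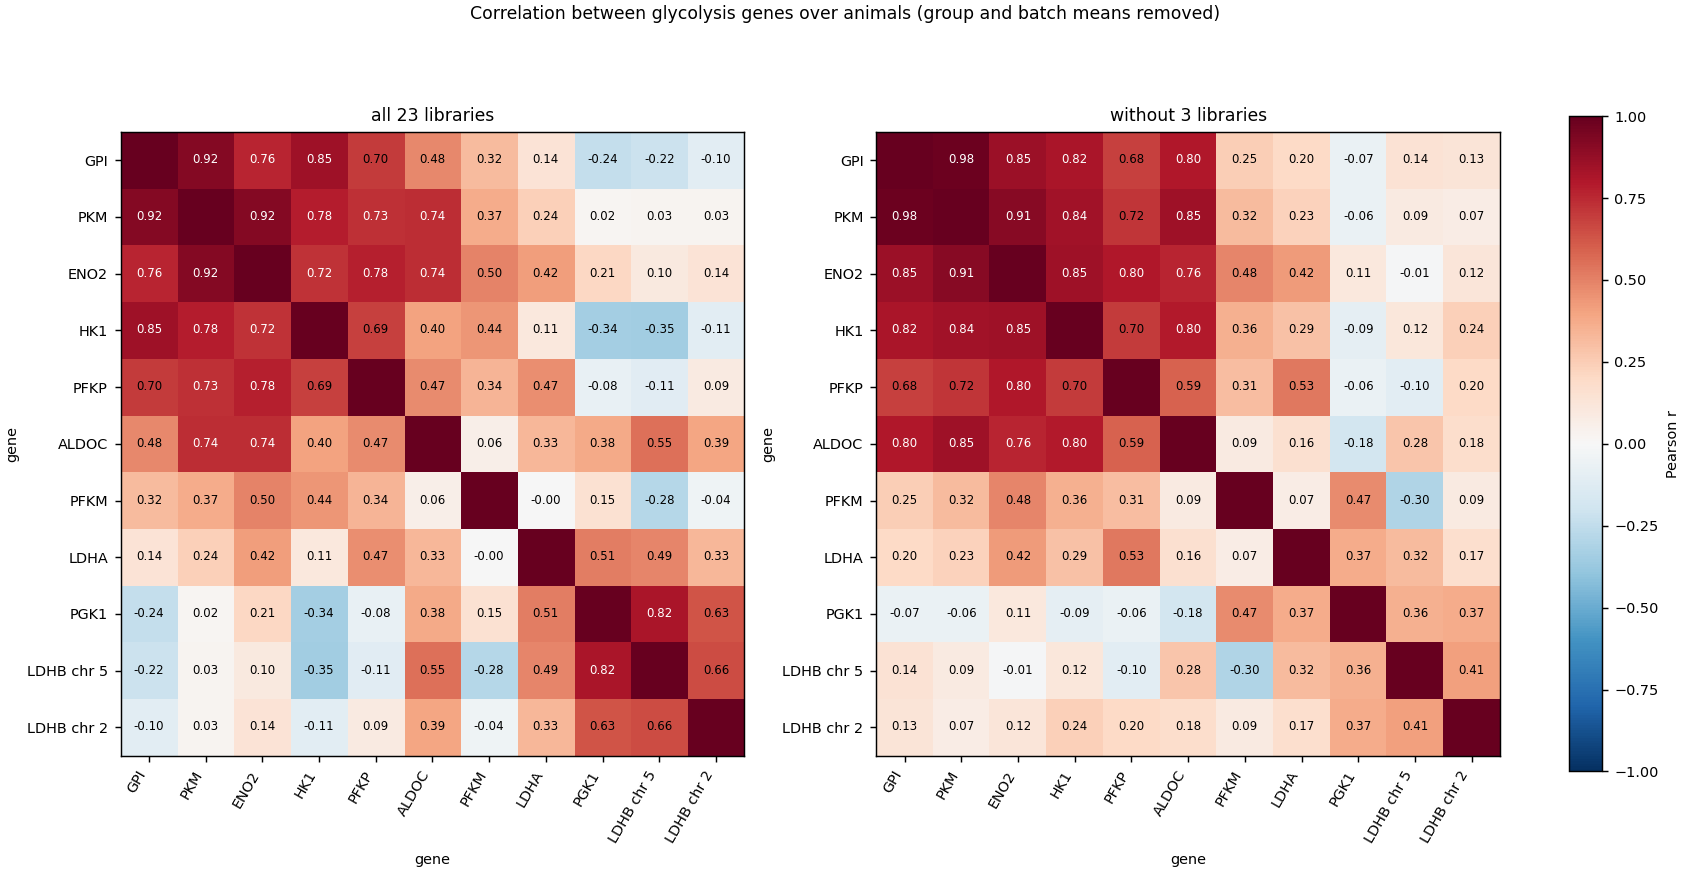
Pearson's r between glycolysis genes and the chromosome 5 LDHB locus over animals, after removal of group and batch means, for all 23 libraries (left) and without the 3 libraries that stand apart (right). A red block joins GPI, PKM, ENO2, HK1 and PFKP in both panels. ALDOC has 0.74 with PKM and ENO2, 0.40 with HK1 and 0.47 with PFKP on the left. On the right it has 0.76 with ENO2, 0.80 with HK1 and GPI, 0.85 with PKM and 0.59 with PFKP. The r of 0.82 between PGK1 and the chromosome 5 LDHB locus on the left is 0.36 on the right.

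The mean log2 level of HK1, GPI, PFKP, ENO2 and PKM, grouped after their r was seen, was set beside the summed level of each of 11 marker lists. Here group and batch means were not removed, so differences between groups or batches enter these r. The highest r was with inhibitory neuron markers (0.70 over 23 libraries, and 0.71 without the 3 that stand apart). Neuron markers, from which ENO2 was left out, gave 0.36 (0.58 without the 3), and excitatory neuron markers 0.09 (0.17). The lowest over the 23 libraries was with astrocyte markers, at -0.41 (-0.47), and muscle markers gave 0.49 (0.58). With ALDOC added to the set the r was 0.70 with inhibitory neuron markers and -0.37 with astrocyte markers. The mean of PGK1, LDHA and the chromosome 5 LDHB locus had its highest r with neuron markers (0.67, and 0.55 without the 3 libraries), and 0.30 with excitatory neuron markers (-0.16 without them). The 3 libraries that stand apart had the 3 highest scores of this set (0.29, 0.23 and 0.21). These are descriptions over the same libraries, and the part of cell makeup was not tested.

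The genes most like each member were sought among 10288 tested genes with a symbol and a mean above 5 CPM. For this, Pearson's r was again taken with group and batch means removed. The highest were UBA1 for HK1 (0.95), DDX24 for GPI (0.93), CLCN4 for PFKM (0.95), FUCA1 for PFKP (0.88) and SLC25A11 for ALDOC (0.94). They were TOMM20 for PGK1 (0.93), NUMBL for ENO2 (0.94), GDI2 for PKM (0.93), C1orf216 for LDHA (0.79) and NUDT16 for LDHB (0.80). The second in each case was SEZ6L2 for HK1, DZANK1 for GPI, PAK1 for PFKM, ACOT7 for PFKP, EEF1A2 for ALDOC, STRAP for PGK1, ABHD12 for ENO2, TUBB4B for PKM, SERINC1 for LDHA and ARPC5 for LDHB. For PFKM and PFKP the first gene was also first without the 3 libraries that stand apart, whereas TOMM20 was then the 12th for PGK1. For the chromosome 5 LDHB locus TMEM230 had 0.95 with all libraries and 0.67 without those 3.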

How the data were processed

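The values are expected counts per gene in 1 table that the authors deposited, from featureCounts with reads split between overlapping genes. The submitters' processing notes name fastp 0.20.0 for trimming, STAR 2.6c for alignment to susScr11 and featureCounts 1.5.1 for counting. Per the file headers, primary alignments with both mates mapped were counted without regard to strand, in fractions where a read met several genes. Exactly whole values made up 72.2% of the table. They were rounded for the count models, which moved a library's total by at most 0.00127%. The deposited exon coordinates gave positions and the other unit used, exon length (a gene length in bases, not a score of expression).

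Symbols were found for 14857 of 25880 identifiers. The filterByExpr function of edgeR (10 as minimum count, 15 as minimum total) chose the genes tested. One quasi-likelihood model of edgeR 4.0.16 in R 4.3.3, with TMM scaling, 4 groups and batch, gave the 7 comparisons, two-sided, with Benjamini-Hochberg adjustment over 15049 genes and a threshold of 0.05. SEs and 95% intervals were derived from the F statistics. Ratios and TPM used the listed exon lengths, and log2 CPM for correlations used a prior count of 2. Alternatives were DESeq2 1.42.0, limma-voom (limma 3.58.1), 1 surrogate variable from sva 3.50.0, other scalings and filters, no batch term, groups or batches alone, and leaving out libraries. The models were tested on simulated counts. No 2 libraries were duplicates: every pair differed at no fewer than 98.6% of well-counted genes.

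The 10 genes, the pathway and marker lists and the rule for naming genes were chosen with earlier results of these data known. The rule names all members, up to 4 genes per direction of each pathway list that passed a comparison, otherwise the 2 with the smallest p in each comparison of psilocybin with saline, and the 2 genes most like each member. Some genes that it names are not reported here. ALDOA and PGAM2 in the batch comparison fall outside it and were named after their values were seen. Of the listed symbols, 8 were matched by their RefSeq locus, and GLUL, FOLR1, CLDN5, VWF, MYH7, MYH2, MYLPF, NEFM, SLC2A1, SLC16A1, PGM1 and BNIP3 were not matched and not used here. Animal numbers are not shared between groups. The labels give 1 animal to each library, so p-values measure the spread between animals.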

Additional observations from a re-analysis of the deposited data

Results flagged for a closer look

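Among 56 sets of values of 1 ratio or 1 gene in 1 group, 2 held a library whose gap to its nearest neighbour was above Dixon's 95% critical value, which chance gives in about 1 set in 20. In the psilocybin 1 week group, animal 3 had a log2 ratio of LDHA over the LDHB symbol of 3.34, below the other 5 animals at 3.99 to 4.35. It had the highest level of the chromosome 2 LDHB model in its group, 5.10 CPM, and the lowest of LDHA, 134 CPM. In the saline 1 week group, animal 3 had a log2 ratio of PFKM over PFKP of -0.21, below the other 5 animals at 0.05 to 0.19. It had the lowest PFKM of its group, 309.8 CPM, and a PFKP of 229.9 CPM within the range of the others.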

How the results depend on the processing

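No paired analysis was possible because the groups share 0 animal numbers. Under 14 settings and with each of the 23 libraries left out in turn, 0 of the 10 genes passed in any comparison of treatments or times. Of 2783 values for single genes, 2749 stayed on the same side of the threshold and 187 that had not passed changed sign, the largest of them 0.17 in size on the log2 scale. After psilocybin, DESeq2 called 1 gene at 1 week against 1 day (CENPF), and leaving out 1 library gave 0 to 1 calls over all genes (CENPF without psilocybin 1 week animal 6). The members' median for this comparison was -0.10, and -0.00201 in batch 1 alone. After saline, DESeq2 called 1 gene (LXN), and leaving out 1 library gave 0 to 1 (LXN without psilocybin 1 day animal 4). Both genes were named after their values were seen. Between batches, 4955 genes passed, 49.0% of them higher in batch 2, and 263 passed with 1 surrogate variable. The share higher was 61.7% with total counts and 58.3% without a filter. Of the 10 genes, 2 passed, 0 with 1 surrogate variable, 0 without a filter, and 0 to 3 when 1 library was left out. The chromosome 5 LDHB locus had -0.19 between batches, 0.0176 with 1 surrogate variable, and did not pass with RLE factors, total counts, mitochondrially encoded genes left out or no filter. The cause was not tested. The mean TPM of ALDOC was 1270.3 and that of PKM 591 with shared exon bases left out. Counts of LDHB on chromosome 2 are too few to resolve its differences below their intervals.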
